A study of Homo sapiens with 5 samples.

Results

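The regions described here are long noncoding RNA (lncRNA) loci that lie close to, but do not overlap, a RefSeq gene in the human line HEK 293T, which derives from embryonic kidney. They were chosen by position alone: transcripts with the same span and the same expression values were counted as 1 locus, and a locus was kept when it overlapped no entry of the RefSeq table and lay at most 10 kb from the nearest entry. This gave 2423 of 10010 loci, built from 4298 transcripts, beside 2161 different genes. The study compared 3 groups of cultures by RNA sequencing after depletion of ribosomal RNA. Control cells (2 libraries) received no drug, treated cells (2 libraries) received 1 µM of 5-aza-2'-deoxycytidine (5-aza-CdR) for 3 days, and recovery cells (1 library) had the same treatment and were then cultured for 30 days without drug. The labels mention triplicate cultures but do not tie a library to a culture. The authors deposited 1 value per locus and group, in FPKM, which scales fragments by transcript length and library depth. Values are therefore printed without SD, and the spread between libraries cannot be shown. The only tests per locus are the authors' q-values (p-values adjusted for multiple testing) against control, which may measure technical spread only.

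As background, 5-aza-CdR resembles deoxycytidine, enters newly made DNA and binds the enzymes that methylate CG dinucleotides, and the marks are then diluted at each cell division. Many lncRNAs start close to a protein-coding gene. Some are transcribed away from a shared promoter, some continue from the end of a gene, and others have a promoter of their own, so a neighbour can but need not be expressed together with the gene. The comparison made for these loci is therefore between each locus and its nearest gene across the 3 groups.

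The 6 windows shown here are the 250 bases before the start of genes whose pair with a nearby locus is described in the text, to show how many CG dinucleotides, the target of the methylation that the drug removes, the gene's promoter holds. The loci lie on the promoter side of the gene for 5 of them and beyond the gene's end for IRS4. They are from RefSeq (GRCh38.p14, found by symbol), run 5′ to 3′ on the strand of the gene, and have each CG in capitals.
IRS4: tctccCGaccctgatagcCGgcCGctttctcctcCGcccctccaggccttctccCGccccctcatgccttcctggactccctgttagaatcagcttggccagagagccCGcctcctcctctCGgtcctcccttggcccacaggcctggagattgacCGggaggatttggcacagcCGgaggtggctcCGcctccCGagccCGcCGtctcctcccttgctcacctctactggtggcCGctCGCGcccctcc
SPINK13: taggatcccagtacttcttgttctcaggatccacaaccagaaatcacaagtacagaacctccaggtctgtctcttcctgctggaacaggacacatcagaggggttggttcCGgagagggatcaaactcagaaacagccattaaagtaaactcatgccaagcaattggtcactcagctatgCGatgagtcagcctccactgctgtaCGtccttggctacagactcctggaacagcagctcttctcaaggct
SPOPL: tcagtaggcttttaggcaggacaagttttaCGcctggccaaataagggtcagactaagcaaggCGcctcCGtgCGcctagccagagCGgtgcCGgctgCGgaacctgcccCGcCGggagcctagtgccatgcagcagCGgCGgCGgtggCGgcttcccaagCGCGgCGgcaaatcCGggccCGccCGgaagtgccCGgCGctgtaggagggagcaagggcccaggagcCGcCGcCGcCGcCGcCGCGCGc
CHAC1: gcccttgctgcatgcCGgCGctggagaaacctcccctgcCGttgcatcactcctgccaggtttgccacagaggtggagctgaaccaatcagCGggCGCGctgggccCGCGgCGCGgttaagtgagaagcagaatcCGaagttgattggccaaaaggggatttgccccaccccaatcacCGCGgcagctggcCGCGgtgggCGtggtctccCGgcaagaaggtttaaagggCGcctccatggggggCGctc
RPIA: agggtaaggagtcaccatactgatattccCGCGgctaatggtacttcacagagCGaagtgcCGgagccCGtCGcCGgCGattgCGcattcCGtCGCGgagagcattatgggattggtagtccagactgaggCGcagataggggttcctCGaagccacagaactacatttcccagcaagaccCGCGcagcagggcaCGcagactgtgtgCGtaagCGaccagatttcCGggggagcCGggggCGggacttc
HSPA5: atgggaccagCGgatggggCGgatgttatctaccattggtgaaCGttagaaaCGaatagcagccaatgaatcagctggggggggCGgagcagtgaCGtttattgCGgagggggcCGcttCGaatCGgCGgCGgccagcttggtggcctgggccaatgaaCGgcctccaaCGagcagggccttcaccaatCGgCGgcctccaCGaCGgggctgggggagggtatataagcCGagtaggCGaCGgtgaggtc
The SPINK13 window (chr5:148268544-148268793, plus strand) held 3 CG, the IRS4 window (chrX:108736564-108736813, minus strand) 16, the CHAC1 window (chr15:40953221-40953470, plus strand) 19, the HSPA5 window (chr9:125241344-125241593, minus strand) 21, the RPIA window (chr2:88691423-88691672, plus strand) 22 and the SPOPL window (chr2:138501520-138501769, plus strand) 29. The median over all 27305 windows of the table was 11, and it was 19 over the 1556 nearest genes with a window. SPINK13 was thus poorer in CG than the median of all windows and the other 5 were richer. Against the median of the nearest genes, SPINK13 and IRS4 were poorer, CHAC1 was equal, and HSPA5, RPIA and SPOPL were richer. On either strand, the TATA box TATAAA was in 0 of the 6 windows and in 11.1% of all windows. The CCAAT box CCAAT was in those of SPINK13, CHAC1, RPIA and HSPA5 and in 33.0% of all. The GC box GGGCGG, which contains a CG, was in those of IRS4, SPOPL, RPIA and HSPA5 and in 42.3% of all. Genes with a locus at their start had a median of 21 CG where the locus was detected (374 genes) and 19 where it was at 0 in every group (629 genes). A match of letters is a description of the sequence and not a binding site.

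The loci were mostly silent or too low to measure. Of the 2423, 963 (39.7%) were above 0 FPKM in at least 1 group and 1460 were listed at 0 in all groups. In control 441 loci were above 0, in treated cells 755 and in recovery 544, and 256 were above 0 in all 3. The worth of 1 fragment was estimated from a recurring ratio of group values, over all lncRNA loci. In treated cells it was 0.822 times as many FPKM as in control (41 of 1044 loci above 0 in both), which corresponds to 1.22 times as many fragments. In recovery it was 1.53 times as many (18 of 931 loci), which corresponds to 0.654 times as many fragments. Control and treated values each stand for 2 libraries and recovery values for 1. How far depth set the number of loci above 0 was not tested. Loci that overlap a gene were above 0 in some group more often (50.2% of 2054) and loci 10 to 100 kb from a gene less often (23.1% of 3481), given as counts without a test.

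Detection varied with the neighbour. Of the 789 loci under 1 kb from their gene 48.4% were detected, against 37.2% of 881 at 1 to 5 kb and 33.6% of 753 at 5 to 10 kb. Where the nearest gene had a mean of 0 FPKM over the 3 groups, 22.2% of 483 loci were detected. The share was 32.6% of 457 loci beside genes of up to 1 FPKM, 45.7% of 716 beside genes of up to 10 FPKM and 49.5% of 767 beside genes above 10 FPKM. The strand of the gene was known for 1746 loci, of which 1049 lay beyond the start of the gene and 697 beyond its end. Under 1 kb, 44.8% of 500 loci at a gene start and 58.1% of 105 at a gene end were detected. The share detected was thus higher beside expressed genes and close to them, at both ends of the gene.

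**Figure D1:**
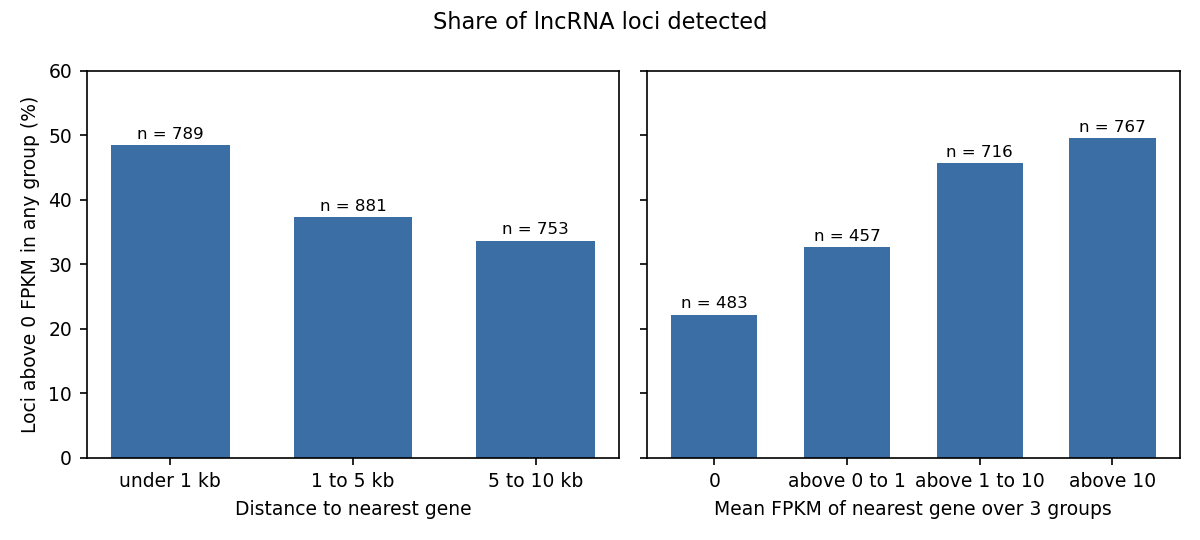
Share of the lncRNA loci (percent, vertical axis) above 0 FPKM in any of the 3 groups, by distance to the nearest gene on the left and by the mean FPKM of that gene on the right. Bars give the share and n the loci in each class. The share goes from 48.4% under 1 kb to 33.6% at 5 to 10 kb, and from 22.2% beside genes at 0 to 49.5% beside genes above 10 FPKM.

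Once detected, a locus's level said little about its gene's. The 2 tables are on separate scales: at 16 entries with identical coordinates and values above 0 in both, the lncRNA value was a median of 27.8 times the RefSeq value in control, 25.7 times in treated cells and 24.8 times in recovery. Levels of a locus and of a gene are therefore never compared directly here. Over 749 pairs with a mean of at least 0.5 FPKM for both locus and gene, Spearman's rho of levels was 0.06 in control, 0.10 in treated cells and 0.08 in recovery. The same measure was 0.43, 0.44 and 0.43 over 536 overlapping pairs and 0.01, 0.03 and -0.01 over 521 pairs 10 to 100 kb apart. These are correlations across loci that share libraries and depth, given as descriptions.

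Most of the summed signal came from a pair of loci. TCONS_00022986 (chromosome 14, 50320358 to 50331183, hg19), 818 bases from NEMF, a ribosome quality control gene, stood at 580314 FPKM in control, 465122 in treated cells and 1330150 in recovery. It held 56.9%, 50.4% and 73.7% of the summed FPKM of all loci. The RefSeq gene table (GRCh38.p14) lists RN7SL3 and RN7SL2, genes of the 7SL RNA of the signal recognition particle, between NEMF and ARF6, but the locus was not matched to them by coordinates. TCONS_00029068 (chromosome 21, 9826394 to 9827720), 130 bases from the entry NR_037458, stood at 101763, 107818 and 33994 FPKM. Neither was called in the authors' deposited table (lowest q 0.441 and 0.156). NEMF was at 11.8, 10.4 and 9.12 FPKM, lowest in recovery, where its neighbour was 2.29-fold above control. The other loci among the 10 highest were at 5095 FPKM or less. They included neighbours of DFFA, a subunit of the DNA fragmentation factor (858, 1078 and 895 FPKM), UBN2 (631, 1415 and 356 FPKM) and TULP4 (782, 731 and 1033 FPKM). Apart from TCONS_00017137 beside VCX3B, none of the 10 was called.

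The first comparison set treated cells against control. In the authors' deposited table, 19 loci rose and 20 fell in treated cells at q under 0.05, out of 367 with a q under 1. That is 5.18% and 5.45%, near the 6.77% and 4.57% of all lncRNA loci called higher and lower, so the calls were about as frequent as among lncRNA loci in general. All 19 loci that rose were listed at 0 in control, and all 20 that fell were listed at 0 in treated cells. An exact 0 can be a failed estimate, and its cause was not tested. Since no ratio can be formed against 0, the size is given as the level reached.

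The loci that rose stood at 52.7 to 1272 FPKM in treated cells, with a median of 197. The highest was TCONS_00001406 (chromosome 1, 16123397 to 16126839), 6817 bases from UQCRHL, a respiratory complex subunit-like gene, at 0 in control, 1272 in treated cells and 0 in recovery. TCONS_00004327 (chromosome 2, 88986204 to 88991016), 159 bases from the start of RPIA, whose window is shown above and which encodes an isomerase of the pentose phosphate pathway, stood at 0, 399 and 0 FPKM. Both loci were thus measured in treated cells alone. The locus beside SCNN1D, a sodium channel subunit, was at 0, 364 and 64.4 FPKM, and that beside WAPL, a cohesin release factor, at 0, 353 and 27.4 FPKM. Loci beside MYLIP, a ubiquitin ligase (0, 340 and 0 FPKM), ZNF417 (0, 314 and 94.1 FPKM) and PLEKHG4B (0, 262 and 71.5 FPKM) followed. TCONS_l2_00000030 (chromosome 1, 995080 to 1002533), 3580 bases from AGRN, the gene of the basement membrane protein agrin, was at 0, 251 and 167 FPKM and was called higher in recovery too.

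The loci that fell stood at 56.4 to 5095 FPKM in control, with a median of 174. TCONS_00017137 (chromosome X, 8196412 to 8423740), 9130 bases from the germline gene VCX3B, was at 5095 FPKM in control and 0 in both other groups. The VCX genes are near copies, so fragments of VCX3B cannot be assigned with certainty. The loci beside RETSAT, a retinol-processing enzyme (1826 FPKM), TTF2, a transcription termination factor (1644 FPKM), and the olfactory receptor gene OR7C1 (558 FPKM) had the same pattern, with 0 in treated cells and in recovery. The locus beside ROCK1P1, a pseudogene, was at 2145, 0 and 234 FPKM and that beside TMEM250 at 468, 0 and 358 FPKM. TCONS_00029516 (chromosome 22, 20850199 to 20856009), 28 bases from the start of KLHL22, a ubiquitin ligase adaptor, was at 510, 0 and 1150 FPKM. In the last 3 loci the value was 0 in treated cells only. TCONS_l2_00029021 (chromosome 9, 128003881 to 128023167), 214 bases from the start of HSPA5, the endoplasmic reticulum chaperone BiP, was at 213 FPKM in control and at 0 in both other groups.

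The genes beside these loci were not called, and few RefSeq genes were called at all. Of the 19 genes beside a locus that rose, 14 were above and 4 below control, 1 was equal, and 0 were called in the authors' deposited table; their median log2 change was 0.31. Of the 20 genes beside a locus that fell, 8 were above and 11 below control, 1 was equal and 0 were called, with a median of -0.15. A q under 1 was given for 17 and 16 of these genes. Among all RefSeq genes with a q under 1, 1.08% were called higher and 0.275% lower in treated cells. At such shares, 0 calls says little about the neighbours. All log2 changes are differences of log2(FPKM + 1) and understate the change of low values. RPIA was at 7.82, 19.2 and 15.3 FPKM (treated q = 0.847 in the authors' deposited table), WAPL at 42.6, 35.8 and 34.6 FPKM, and HSPA5 at 61.7, 72.8 and 58.8 FPKM (treated q = 0.99 in the authors' deposited table) while its neighbour was at 0.

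**Figure D2:**
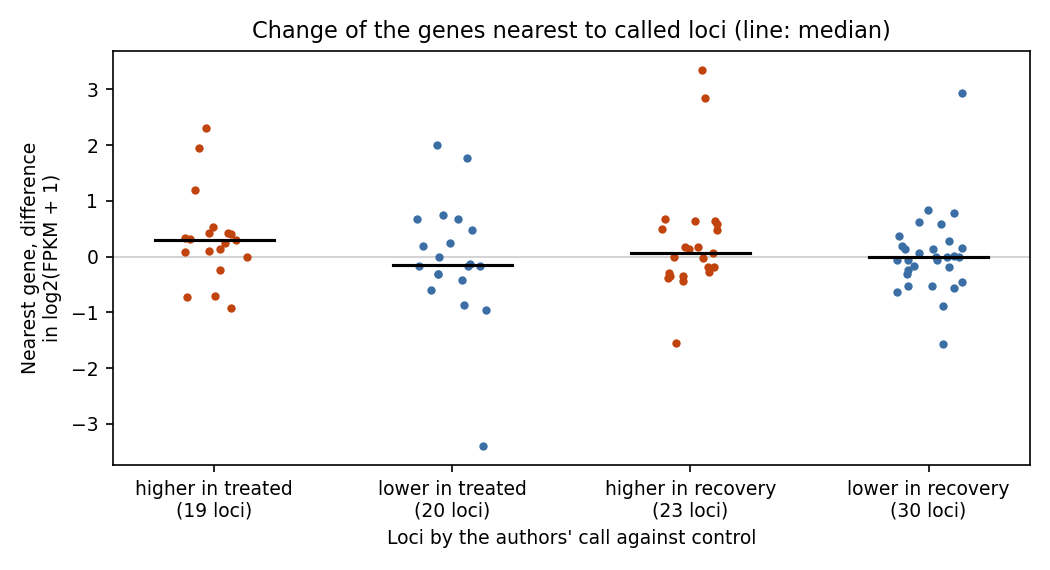
Change of the nearest gene as a difference in log2(FPKM + 1) against control (vertical axis), for the genes beside loci called higher or lower in treated and in recovery cells. Each point is a gene beside a locus (red for loci called higher, blue for lower) and each line the median; the medians lie at 0.31 and -0.15 for treated cells and at 0.07 and 0.00 for recovery.

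The pairs of BARX1 and CHAC1, chosen after their values were seen, had a called locus and a gene that differed from control in the same direction. TCONS_00015719 (chromosome 9, 96717879 to 96721422) lies 270 bases from BARX1, a homeobox transcription factor. The locus was at 0, 164 and 9.75 FPKM (treated q = 0.0402 in the authors' deposited table). BARX1 was at 12.6, 66.4 and 48.7 FPKM, 5.28-fold above control in treated cells. For this difference the authors' deposited table gives q = 0.052. TCONS_00023380 (chromosome 15, 41244055 to 41245400) lies 235 bases from the start of CHAC1, which encodes a glutathione-degrading enzyme of the amino acid stress response. This locus fell from 88.8 FPKM to 0 and was at 24.0 FPKM in recovery, and CHAC1 was at 33.8, 2.29 and 37.2 FPKM, 14.8-fold below control in treated cells without a call (q = 0.563 in the authors' deposited table). In both pairs locus and gene were on the same side of control in treated cells.

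After 30 days without the drug, 23 loci were called higher and 30 lower than control in the authors' deposited table, out of 343 with a q under 1. These shares of 6.71% and 8.75% stood beside 7.94% and 6.93% of all lncRNA loci, again close to the background. The comparison rests on 1 recovery library and on the same control values as the first. All 23 loci that rose were listed at 0 in control and all 30 that fell were listed at 0 in recovery.

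The loci that rose reached 43.8 to 835 FPKM in recovery (median 125). The highest, TCONS_l2_00028339 beside VPS13B (chromosome 8, 100008717 to 100025293), was at 0, 119 and 835 FPKM. The locus beside UBL4B was at 0, 9.59 and 792 FPKM and that beside the start of STIM2, an endoplasmic reticulum calcium sensor, at 0, 11.6 and 194 FPKM. The loci beside the zinc finger genes ZNF623 (0, 177 and 305 FPKM) and ZNF850 (0, 73.2 and 272 FPKM) and beside NICOL1 (0, 11.0 and 192 FPKM) were likewise above 0 in treated cells and higher in recovery. TCONS_l2_00022568 (chromosome 5, 147618054 to 147646815) lies 1054 bases from the start of SPINK13, a protease inhibitor gene whose window held the fewest CG of those shown. It was at 0, 0.342 and 535 FPKM (recovery q = 0.00397 in the authors' deposited table), and SPINK13 itself was listed at 0 in the first 2 groups and at 9.21 FPKM in recovery, without a call in the authors' deposited table (q = 0.276). Locus and gene were thus both near 0 outside recovery.

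The loci that fell had stood at 48.0 to 5095 FPKM in control (median 199), and all were at 0 in recovery. Besides the loci near VCX3B, RETSAT and TTF2, they included the neighbours of RBM15-AS1 (1787, 232 and 0 FPKM), IMPA2, an inositol phosphatase (1064, 184 and 0 FPKM), GPN2 (842, 120 and 0 FPKM), the kinase gene MAPKAPK5 (630, 58.8 and 0 FPKM) and FAM204A (598, 98.4 and 0 FPKM). In these 5 loci the treated value lay between control and recovery. Of the genes beside the 23 loci that rose, 12 were above and 10 below control, with a median log2 change of 0.07. Of those beside the 30 that fell, 13 were above and 14 below, with a median of 0.00. In both sets 0 genes were called by the authors. A q under 1 was given for 20 and 23 of these genes. In recovery, 0.895% of all RefSeq genes with a q under 1 were called higher and 0.447% lower. At such shares, 0 calls says little about these neighbours.

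Called genes, in turn, stood beside loci that were not called, most of them at 0 in all groups, as most of the 2423 loci were. In treated cells 15 nearest genes rose and 3 fell in the authors' deposited table, out of 1257 with a q under 1 (1.19% and 0.239%, against 1.08% and 0.275% of all RefSeq genes). In recovery 10 rose and 7 fell out of 1240 (0.806% and 0.565%, against 0.895% and 0.447%). Together 27 genes had a call in either comparison, and 30 loci lay beside them. Of these loci 21 were at 0 in all groups and could not be called, beside 1460 of all 2423 loci at 0. The other 9 were detected and 0 were called, and some of them, as beside ZCCHC12 and SIK1, had no q under 1. Among all lncRNA loci with a q under 1, 6.77% were called higher and 4.57% lower in treated cells. In recovery the shares were 7.94% and 6.93%. With so few loci, 0 calls says little about these pairs. Silent loci stood beside the germline genes RHOXF1 (0, 12.3 and 0 FPKM) and ACTL8 (0, 1.27 and 2.91 FPKM), the immune ligand gene ULBP2 (0, 5.26 and 5.45 FPKM) and CPA4 (0, 6.27 and 0.676 FPKM). ULBP2 and DDX25 each had 2 of the 30 loci. ACTL8 was picked after its values were seen.

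The IRS4 pair was the clearest case of a detected locus beside a called gene. IRS4, an insulin receptor substrate, was listed at 0 in control and rose to 2.13 FPKM under treatment and to 28.0 FPKM afterwards (q = 0.0147 for both in the authors' deposited table). TCONS_00017361 (chromosome X, 107963202 to 107968338), 7388 bases beyond the end of IRS4, was at 2.67, 24.1 and 458 FPKM, 9.05-fold and 172-fold above control, without a call (recovery q = 0.487 in the authors' deposited table). Its values correspond to whole fragments in the ratio 3 to 33 to 337, or a multiple of it. Locus and gene had the same order of groups.

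Of the other called genes with a detected neighbour, only HSPA1B and TMEM86B were highest in the same group as theirs. TKTL1, ZCCHC12, DDX25, SHISA3, SIK1 and NR_026997 were highest in another group than their neighbour. TKTL1, a transketolase-like cancer-testis gene, rose from 2.42 to 100 FPKM in treated cells and was at 16.3 FPKM in recovery, whereas TCONS_00017107 (chromosome X, 153562310 to 153563387), 3596 bases beyond its end, was at 0, 0 and 172 FPKM. ZCCHC12 rose from 6.58 to 60.6 FPKM in treated cells while the locus 804 bases from its start was at 24.7, 0 and 0 FPKM. TCONS_00011779 (chromosome 6, 31789991 to 31795104), 407 bases from the start of HSPA1B, an inducible HSP70 gene, was at 0, 957 and 0 FPKM without a call (treated q = 0.165 in the authors' deposited table), and HSPA1B rose from 27.1 to 86.5 FPKM and was at 21.5 FPKM in recovery. HSPA1B has a nearly identical copy, HSPA1A, so its fragments cannot be assigned with certainty, and this pair too was chosen after its values were seen. The other detected loci beside called genes were those near DDX25 (0, 21.0 and 0 FPKM), TMEM86B (6.04, 0 and 0 FPKM), SHISA3 (0, 101 and 0 FPKM), SIK1 (0, 0 and 1.78 FPKM) and NR_026997 (57.2, 15.1 and 61.8 FPKM). TMEM86B was at 4.54, 0 and 0 FPKM and was called lower in both comparisons, with 0 in the same groups as its neighbour.

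Over all pairs the change of a locus and the change of its nearest gene were close to unrelated. Across the 749 pairs, Pearson's r of the log2 changes was 0.02 and Spearman's rho 0.03 for treated against control, and 0.07 and 0.04 for recovery against control. Where both members of a pair differed from control by at least 0.5 log2, 142 of 284 pairs (50%) had the same direction in treated cells and 106 of 198 (53.5%) in recovery. For loci that overlap their gene, r was 0.47 and 0.46, and 239 of 293 (81.6%) and 220 of 267 pairs (82.4%) had the same direction. Overlapping entries can count the same fragments, and the part of this in the difference was not tested. At 10 to 100 kb, r was -0.02 and -0.01, with 103 of 192 (53.6%) and 73 of 131 pairs (55.7%) in the same direction. All pairs share the libraries and the control values, so these are descriptions of the groups, not tests.

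**Figure D3:**
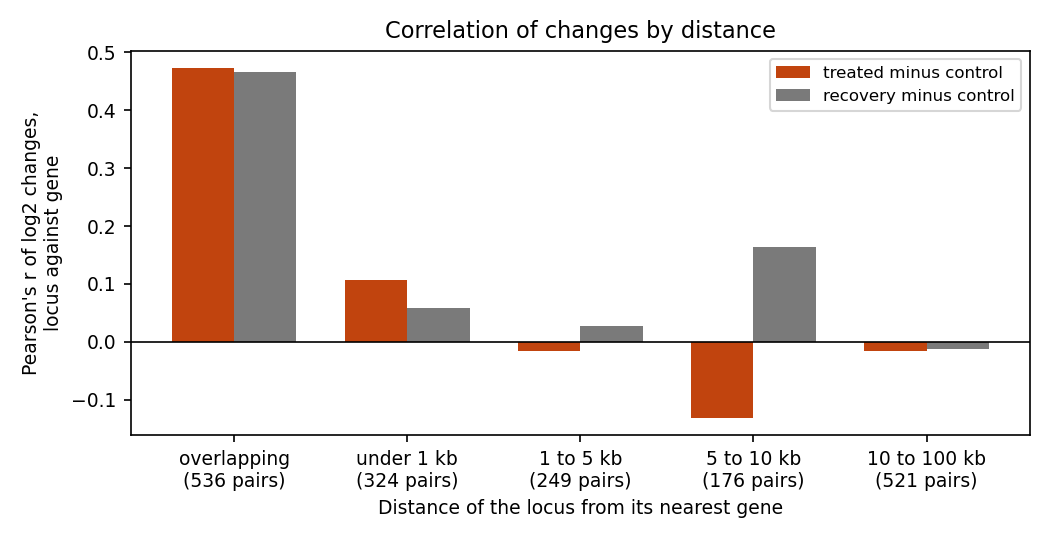
Pearson's r between the log2 change of a locus and that of its nearest gene (vertical axis), by distance, for treated and for recovery cells against control, over pairs with a mean of at least 0.5 FPKM. The bars stand at 0.47 and 0.46 for overlapping pairs and between -0.13 and 0.16 in the 3 classes up to 10 kb.

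By distance or gene end alone, r stayed between -0.13 and 0.16 within the 10 kb. In treated cells r was 0.11 over 324 pairs under 1 kb, -0.02 over 249 pairs at 1 to 5 kb and -0.13 over 176 pairs at 5 to 10 kb; in recovery it was 0.06, 0.03 and 0.16. The sign at 5 to 10 kb thus differed between the comparisons. Over 340 pairs with the locus at the gene start r was 0.04 and 0.11, and over 240 pairs with the locus at the gene end -0.01 and 0.04. Split by gene level as well, r varied more in recovery. For genes above 1 and up to 10 FPKM it was 0.29 over 137 pairs at the start and -0.06 over 91 at the end. For genes above 10 FPKM it was -0.05 over 187 pairs at the start and 0.21 over 129 at the end. For genes of up to 1 FPKM it was 0.17 over 16 pairs at the start and -0.37 over 20 at the end. In treated cells these few pairs gave -0.20 at the start and 0.05 at the end. Among the 206 pairs above 0 in all groups on both sides r was -0.05 and -0.00078.

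**Figure D4:**
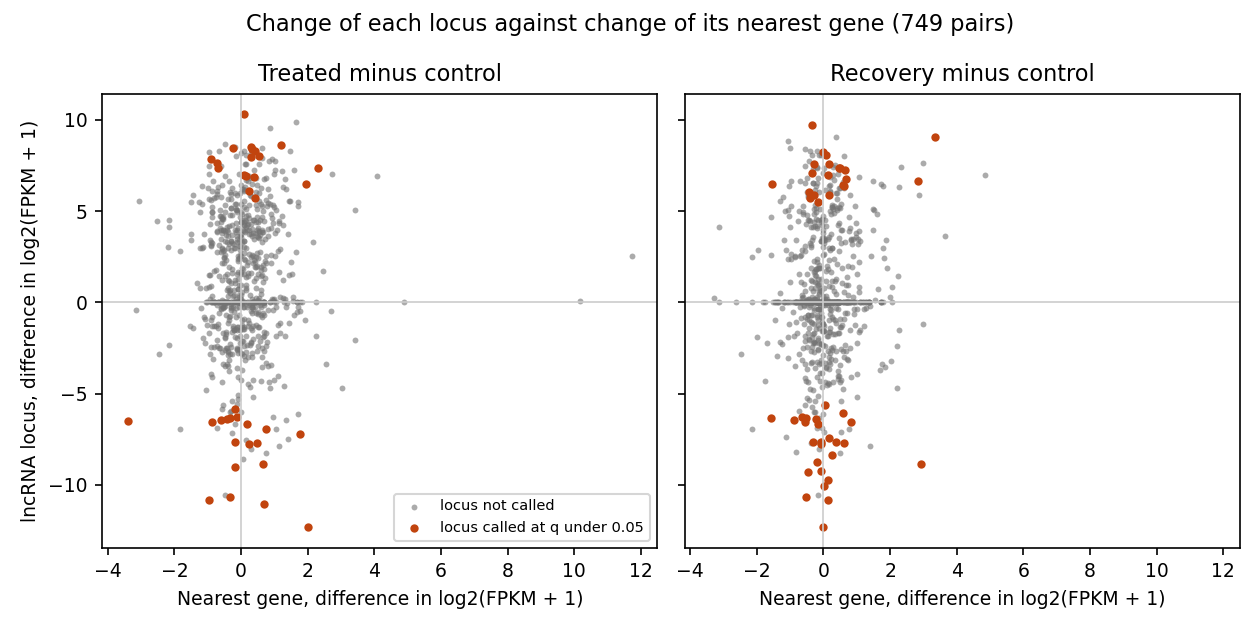
Log2 change of each locus (vertical axis) against that of its nearest gene (horizontal axis) for 749 pairs, treated on the left and recovery on the right; red points are loci called by the authors. The loci spread far more widely than the genes (interquartile range 5.16 against 0.94 in treated cells), and r is 0.02 and 0.07.

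Loci varied far more than genes did. The interquartile range of the log2 change was 5.16 for loci and 0.94 for their genes in treated cells, and 4.2 and 0.78 in recovery. Over the 206 pairs above 0 in all groups it was 2.16 and 0.78 in treated cells and 2.36 and 0.62 in recovery. The pseudocount of 1 also weighs less on the lncRNA table, whose values are on the larger scale, and its part in this was not tested. Of the 749 loci, 377 were at least 1 log2 above and 181 at least 1 log2 below control in treated cells, against 82 and 37 of the genes. Whole numbers of fragments behind the locus values were searched for, up to a set limit of 20 in control. For 91 of the 256 loci above 0 in all groups, such numbers gave the 3 values within 0.01 fragment, and the other loci gave no solution. The smallest solution was kept, and multiples of it fit too. The worth of 1 control fragment, a median of 4.78 FPKM with a range of 0.498 to 114, is therefore an upper limit. Because the limit of 20 was set beforehand, the search does not show how few fragments there were. The median log2 change over the 945 loci with a mean of at least 0.5 FPKM was 1.41 in treated cells and 0.00 in recovery, beside 1.76 and 0.00 over all 3004 such loci. It was -0.27 and -0.12 over the 256 loci above 0 in all groups, of the opposite sign in treated cells, since 509 of the 945 were at 0 in control and 202 in treated cells.

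Pairs measured at 1 FPKM or more on both sides in every group numbered 184, and among these some moved together and others apart, with 0 calls. For the loci this was fixed by the limit, since every called locus was at 0 in a compared group. The locus 81 bases from the start of SPOPL, an adaptor of cullin ubiquitin ligases, was at 5.47, 89.6 and 101 FPKM, and SPOPL at 1.87, 4.81 and 6.98 FPKM, both above control in treated cells and in recovery. The locus beside AGO2, an RNA interference effector, was at 12.8, 38.0 and 7.85 FPKM and AGO2 at 9.90, 28.7 and 11.4 FPKM, so both were highest in treated cells. The locus beside GLDC, a glycine cleavage enzyme, was at 142, 43.5 and 72.6 FPKM and the gene at 13.0, 6.21 and 9.36 FPKM, both lowest in treated cells. Beside SNRPA1, a splicing factor, the locus was at 59.4, 15.3 and 11.4 FPKM and the gene at 40.8, 29.1 and 16.5 FPKM. In CENPP, a centromere protein gene whose pair was the second most alike of those compared by the distance between centred log2 profiles, the locus was at 67.6, 35.7 and 29.5 FPKM and the gene at 14.7, 6.45 and 6.67 FPKM. Pairs of opposite direction were of similar size. The locus beside RNASEH1, which removes RNA from RNA-DNA hybrids, was at 577, 5.54 and 200 FPKM while the gene was 2.78-fold above control in treated cells. The locus 96 bases from the start of TWF2, an actin-binding protein gene, was at 92.7, 41.9 and 7.09 FPKM and the gene at 4.68, 14.6 and 19.3 FPKM. Beside DUSP1, a phosphatase of stress kinases, the locus was at 41.3, 17.0 and 31.5 FPKM, which corresponds to fragments in the ratio 2 to 1 to 1, and the gene at 40.4, 88.9 and 94.6 FPKM. The smallest such ratio was 5 to 18 to 2 beside AGO2, 16 to 5 to 2 beside SNRPA1 and 14 to 9 to 4 beside CENPP. It was 20 to 11 to 1 beside TWF2 and 11 to 219 to 132 beside SPOPL, and multiples of these ratios fit too.

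**Figure D5:**
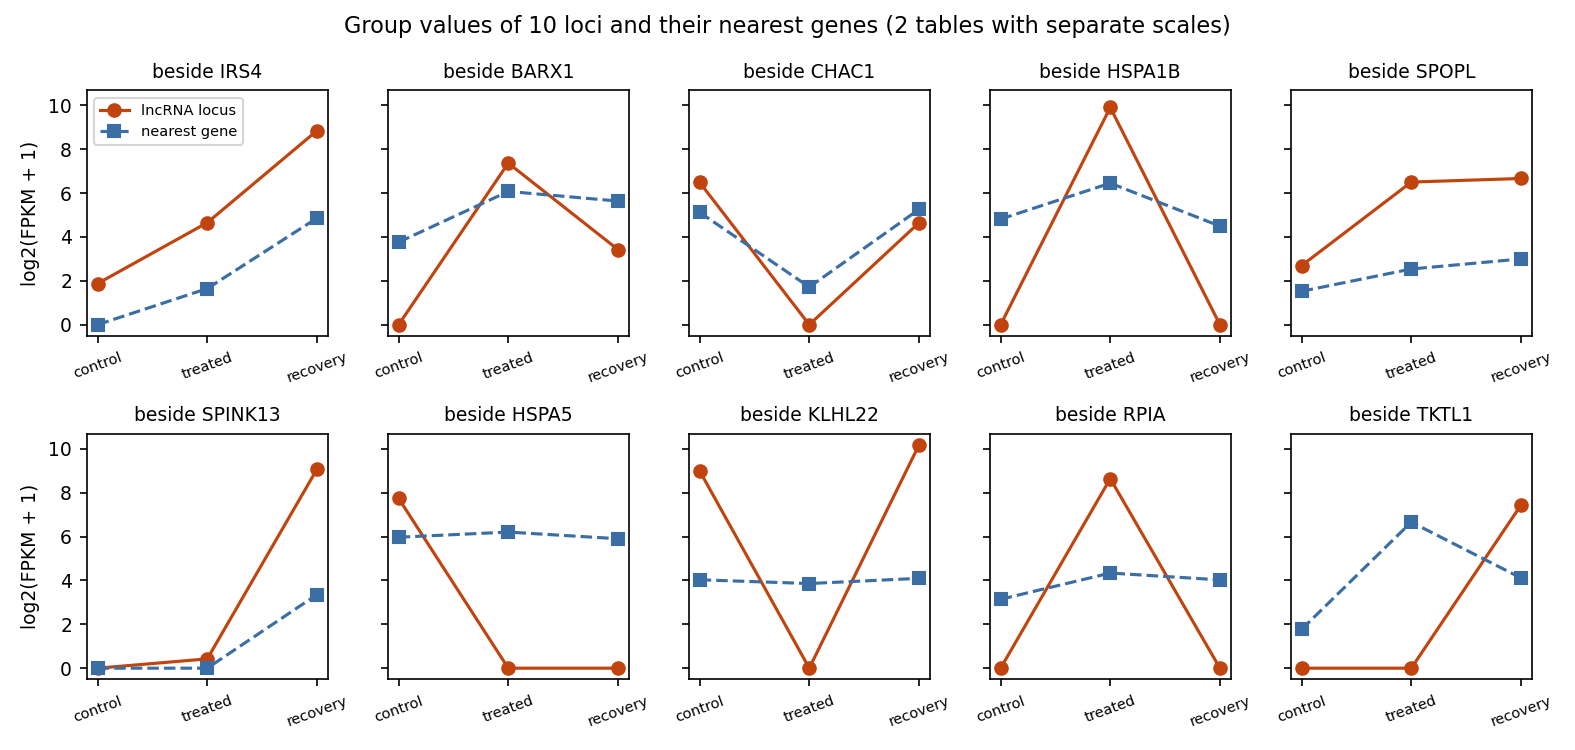
Group values of 10 loci (red, solid) and their nearest genes (blue, dashed) as log2(FPKM + 1), vertical axis, in control, treated and recovery cells; some of the 10 were chosen after their values were seen, and the 2 tables have separate scales, so only the shapes compare. Locus and gene have the same order of groups beside IRS4 and SPOPL, while beside HSPA5 and KLHL22 the locus is at 0 in treated cells as the gene stays near its control value.

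Sorted by the kind of neighbour, the lists held few loci that could be called. The counts are given among loci with a q under 1 in the authors' deposited table, beside 6.77% of all lncRNA loci called higher and 4.57% lower in treated cells, and 7.94% and 6.93% in recovery. Of 63 loci beside zinc finger genes 35 were detected; 1 of 16 rose and 0 fell in treated cells, and 3 of 17 rose and 1 fell in recovery. Of 46 loci beside homeobox and developmental factor genes 18 were detected; 1 of 7, beside HOXB13, rose in treated cells (0, 68.8 and 3.25 FPKM), and 2 of 7, beside LHX1 and FOXD4, fell in recovery. BARX1 is not on this list. Of the 2 loci at the same span 160 bases from TBX2, a T-box gene on this list, the higher was at 90.8, 105 and 432 FPKM, and TBX2 at 3.09, 9.12 and 7.50 FPKM, both above control in treated cells and recovery. Of 16 loci beside cancer-testis and germline genes 9 were detected and 1, beside VCX3B, fell in both comparisons, out of 2 and 3. The locus near GAGE10 was at 0, 141 and 98.2 FPKM without a call. Of 15 loci beside ribosomal protein genes 8 were detected; 0 of 6 were called in treated cells and 1 of 6, 24 bases from RPS7, rose in recovery (0, 128 and 59.1 FPKM). Of 233 loci beside noncoding genes 86 were detected, with 1 rise and 0 falls among 21 in treated cells and 2 rises and 1 fall among 26 in recovery. The 1 locus beside a histone gene, H2AZ2, was at 0, 113 and 136 FPKM and was not called. With 1 to 26 such loci per list, a single call moves a share widely, and the lists were not compared by a test.

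The authors also marked genes as affected in DNA methylation, in a column headed SOM whose making the sources used here do not describe. The nearest gene had this mark for 353 of the 2423 loci (14.6%). In the authors' deposited table the mark stood beside 0 of the 19 loci that rose and 6 of the 20 that fell in treated cells, where 40 of the 367 loci with a q under 1 had it. In recovery it stood beside 2 of 23 that rose and 7 of 30 that fell, with 41 of 343. Marked neighbours were low in control, with a median of 0.0766 FPKM against 3.53 FPKM for unmarked ones, and the part of gene level in these counts was not tested.

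Facts of the whole series bear on these values. Of 9 measured marker genes of the HEK 293T line 6, 7 and 5 were at 1 FPKM or more in control, treated and recovery cells, among them VIM, NEFL, CDH2 and KRT18, while PAX2 was listed at 0 in control and recovery. Of 4 blood and 3 endothelial markers 0 were at 1 FPKM or more in control. Of 3 fibroblast markers 2 (COL1A1 and COL3A1) were at 1 FPKM or more in every group while DCN was at 0, and of 2 epithelial markers 1, 2 and 0 were. The part of other cell types in the results was not tested. The 9 lncRNA loci that carry a known name in the table, such as H19 and HOTAIR, all overlap a RefSeq entry and are therefore not among the loci described. The 3 loci just inside 10 kb, beside CCDC7, MIR4444-2 and PIGM, lay 9967 to 9989 bases away and were at 0 in all groups. Of the 3 just outside, at 10010 to 10017 bases, that beside MIA was at 13.7 FPKM in treated cells and the other values were 0.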

How the data were processed

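RNA was sequenced from 5 libraries, grouped by their source names. Per the labels' protocols, ribosomal RNA was depleted and directional libraries were made. Per the submitters' processing notes, Cufflinks and Cuffdiff were used and the builds hg19 and mm9 are named; coordinates were taken as hg19 and are printed 1-based. No label or header names the aligner, the annotation release or a version. The authors deposited FPKM and q-values, 1 per group, per the file headers; the calls are yes exactly where q is under 0.05. The deposited treated q-value column of the lncRNA table holds an exponent in 1 shifted entry and was handled as a score until that entry was left out. In all 1 of 20221 RefSeq entries and 2 of 21627 lncRNA transcripts with shifted cells were left out. The number of value columns without a group was 0.

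The gap is the number of bases between a locus and the nearest RefSeq entry; 14 loci lie on sequences without an entry. Identical spans with different values stayed apart (210 of the loci, on 101 spans). Symbols came from NCBI's RefSeq gene table (GRCh38.p14, 19665 of 20220 entries matched) and gene strands from its promoter table. A model over single libraries was not fitted, since each table has 1 value per group. Where pairs are correlated, both means had to be at least 0.5 FPKM; the pseudocount was 1. The planned ratio of levels was not used because the 2 tables differ in scale. The value of 1 fragment was picked among the commonest ratios of 2 group values, over loci above 0 in both groups. The ratio kept was that whose simple multiples and fractions held the most loci. Loci were named where they were called (the 8 largest per direction), beside called genes (the 6 largest per comparison), among the 10 highest, among the 6 largest pairs at 1 FPKM or more per comparison and direction, or most alike; not every one is printed, and others are said to be chosen after their values were seen. The loci, lists and rules were chosen with earlier results of these data known. The alternatives are given in the closing section. Some values of single genes are not reported here. Functions were tested on simulated data. Python 3.11.15 with pandas 2.3.3, numpy 2.4.6 and scipy 1.17.1 was used.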

Additional observations from a re-analysis of the deposited data

How the results depend on the processing

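No paired analysis was possible because the tables hold 1 value per group and none per library; leaving out each replicate could not be run for the same reason, and the ratio of levels was not computed. All 28 alternatives for the correlation of changes stayed within 0.1 of the main value, between -0.05 and 0.11. Narrower classes that were not among these alternatives lay further away, such as loci at 5 to 10 kb in treated cells (r = -0.13). The share of pairs with the same direction lay between 47.3% and 61.5% over 28 alternatives. The 61.5% was in treated cells for pairs with a locus mean of 50 and a gene mean of 5 FPKM or more. That limit was chosen after seeing the data. No interval is given for the share, since the pairs share libraries and control values. Without a filter on low values, Pearson's r of log2 levels was 0.17, 0.22 and 0.18 in control, treated and recovery cells, against 0.06, 0.14 and 0.09 with it.

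The counts of called loci depend on the rule. At q under 0.10 there were 36 loci higher and 28 lower in treated cells, 35 higher and 34 lower in recovery, and 1 pair with both called. At q under 0.01 there were 8 higher and 6 lower in treated cells, and 3 higher and 13 lower in recovery. With only loci above 0 on both sides the 4 counts were 0, by construction of the calls, all of which have a 0. Within 1 kb they were 8 and 12 in treated cells and 15 and 13 in recovery, from fewer loci. The median log2 change in treated cells was 1.55 with a pseudocount of 0.1, 1.18 with a mean of 2 FPKM or more, 1.20 within 5 kb, 0.87 within 1 kb, 1.20 with overlapping loci merged, 0.00 without a filter and 0.00 after quantile scaling. Above 0 in all groups it was -0.27, and -0.12 in recovery. The cause of these shifts was not tested beyond the loci at 0. A locus listed at 0 is not shown to be absent, and the part of depth in the zeros was not tested.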
